A study of Homo sapiens with 12 samples.

Results

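The RNA levels of MET, its ligand HGF, the TAM receptors TYRO3, AXL and MERTK, and the TAM ligands GAS6 and PROS1 were followed in melanoma cell lines exposed to vemurafenib. The members were the rows of the tables of both lines that carry these symbols, 7 of 23273 genes. COLO858 and MMACSF are established BRAF-mutant melanoma lines, grown in culture in different media, and vemurafenib is an inhibitor of the mutant BRAF kinase. The 12 libraries formed 6 groups of 2 replicates: each line in DMSO, the vehicle, and in vemurafenib at 0.2 μM, taken after 24 h or 48 h. No time is labeled for the DMSO libraries, and both drug times of a line were set against the same pair of them. Nothing states that replicates came from cultures kept apart beyond their plates, so p-values measure the spread between these samples, which may be technical.

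MET is a receptor tyrosine kinase whose ligand, hepatocyte growth factor (HGF), is secreted as a precursor and cut by serine proteases before it can activate the receptor. TYRO3, AXL and MERTK form the TAM family. Their ligands GAS6 and protein S (the PROS1 product) are carboxylated in a vitamin K-dependent step and bridge the receptors to phosphatidylserine on cell membranes. In melanoma, MET and AXL are known for signaling that can persist when BRAF is inhibited, and high AXL is known to go with low MITF, the melanocyte lineage transcription factor.

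The values were FPKM, which is per length of transcript, so that levels of different genes can be compared within a library. Of 8 melanocyte lineage markers, 7 reached 1 FPKM in COLO858 and 8 in MMACSF. MLANA, a melanosome antigen, stayed between 0.299 and 0.725 FPKM in COLO858. The summed level of these markers was 702 to 717 FPKM in DMSO and 3922 to 4158 FPKM in drug in COLO858. In MMACSF it was 11159.5 to 11373 and 15589 to 17555 FPKM. The rise in COLO858 was not shared by all markers. Of the 7 tested there, 4 were called higher and 0 lower at each time. Mean DCT was 267 FPKM in DMSO, 2915 after 24 h of drug and 2150 after 48 h. S100B, which the paper lists with neurogenesis genes as evidence of a less differentiated state, rose from 113 to 1017 FPKM by 48 h. MITF means were then 67.3 FPKM against 67.7 in DMSO, and TYR means 0.319 against 0.537. Of the markers of other cell types, CD68, CDH1, LUM and, in MMACSF, DCN reached 1 FPKM. Of 10 genes of MAPK output, 9 were called lower in each line at each drug time, by the test against DMSO described below. Of all genes tested, 9.82% and 9.47% were called in COLO858 at 24 h and 48 h, and 5.83% and 8.83% in MMACSF. MIR4461 made up 14.1 to 19.0% of summed FPKM in the replicate 1 libraries and 25.8 to 43.4% in the replicate 2 libraries. The part of this shift in the values below was not tested.

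Levels of the 7 genes in DMSO spanned from TYRO3, at 37.9 ± 3.25 FPKM (mean ± SD, n = 2 here and throughout), to HGF, at 1.52 ± 0.333 FPKM, in COLO858. In MMACSF they spanned from PROS1, at 63.7 ± 13.4 FPKM, to HGF, which was listed at 0. The order in COLO858 was TYRO3, PROS1, MERTK, AXL, GAS6, MET and HGF, and of these neighbors GAS6 and MET overlapped between libraries. The order in MMACSF was PROS1, TYRO3, MET, GAS6, MERTK, AXL and HGF, and no neighbors overlapped. The tables of the lines may have been scaled separately, so levels are not compared between lines. After 48 h in drug, MET had moved from sixth to the third place in COLO858, and TYRO3 was above PROS1 in MMACSF, where PROS1 and MET overlapped.

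**Figure D1:**
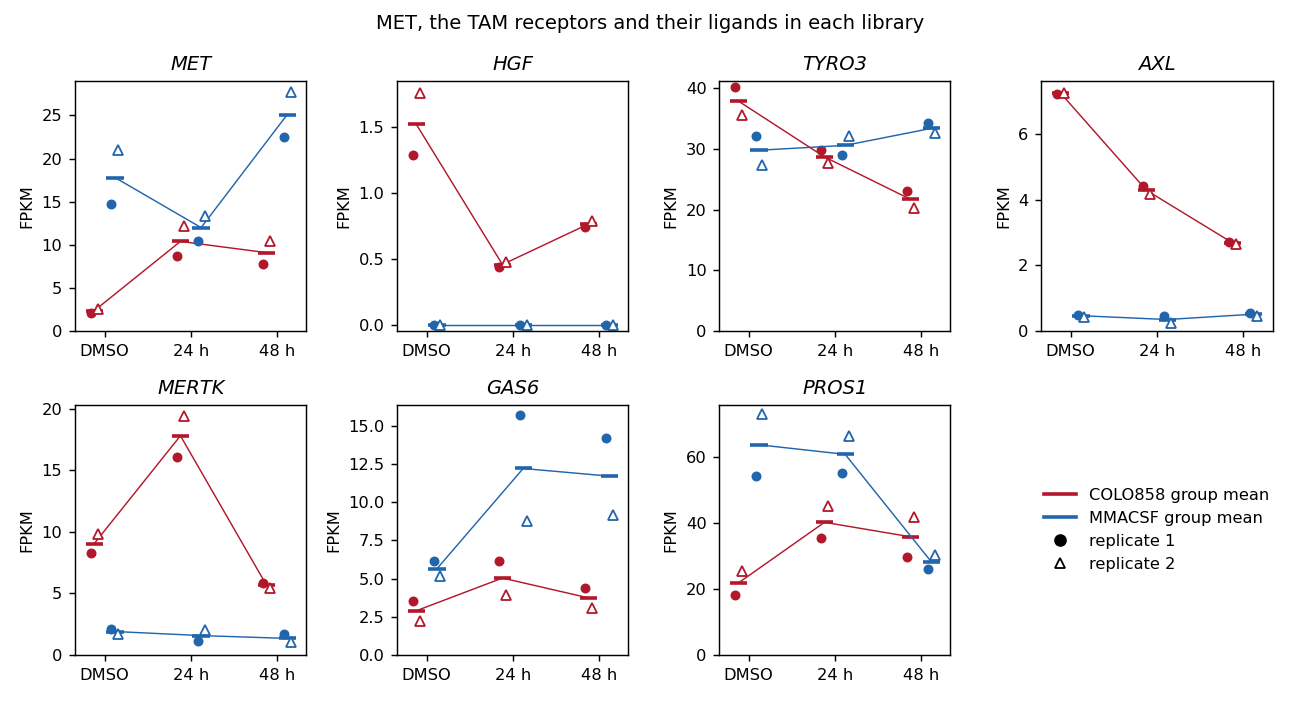
FPKM (y axis, linear, a separate scale for each gene) of the 7 genes in DMSO and at 24 h and 48 h in vemurafenib. Points are single libraries, bars are group means, and lines join the means of COLO858 (red) and MMACSF (blue). In COLO858 MET sits at 2.16 to 2.59 FPKM in DMSO and at 7.83 to 12.2 FPKM in drug, while AXL steps down at each time.

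In COLO858, limma on log2(FPKM + 1), with p-values adjusted by Benjamini-Hochberg over 12696 genes, called 1 of the 7 genes at 24 h and 2 at 48 h at an adjusted p under 0.01. These were MET at both times and AXL at 48 h. Of all genes tested, 9.82% were called at 24 h and 9.47% at 48 h. The median log2 fold-change of the 7 genes was 0.63 at 24 h and -0.51 at 48 h, beside 0.06 and -0.01 over all genes tested. The values of drug and DMSO libraries did not overlap for 7 of 7 genes at 24 h, beside 63.1% of all genes, and for 6 of 7 at 48 h, beside 61.3%. At an unadjusted p under 0.05 the counts were 6 of 7 at each time, beside 40.3% of all genes at 24 h and 39.3% at 48 h.

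Libraries of COLO858 with the same replicate number deviated together from their group means. With that number as a block in the fit, limma called 7 of the 7 genes at 24 h and 4 at 48 h (MET, AXL, TYRO3 and PROS1), with the same log2 fold-changes. Of all genes, 45.0% and 43.7% were then called, so the members' counts rose with those of the whole table. Between 24 h and 48 h the blocked fit called 3 members (AXL, TYRO3 and MERTK), beside 18.0% of all genes. Adjusted p-values are from the fit without the block unless it is named.

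In MMACSF, 5 of the 7 genes reached a group mean of 1 FPKM and were tested, and limma called 0 of them at 24 h and 0 at 48 h. Of all 12599 genes tested there, 5.83% and 8.83% were called. At an unadjusted p under 0.05 the counts were 1 of 5 and 2 of 5, beside 36.0% and 38.9% of all genes. The groups did not overlap for 2 of 5 genes at 24 h and for 5 of 5 at 48 h, beside 59.8% and 64.5% of all genes. The median log2 fold-change was -0.06 at 24 h and 0.16 at 48 h, beside 0.07 and 0.06 over all genes tested. With the replicate number as a block, limma called MET at 24 h, and MET and PROS1 at 48 h. It then called 3284 and 3790 of all 12599 genes.

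**Figure D2:**
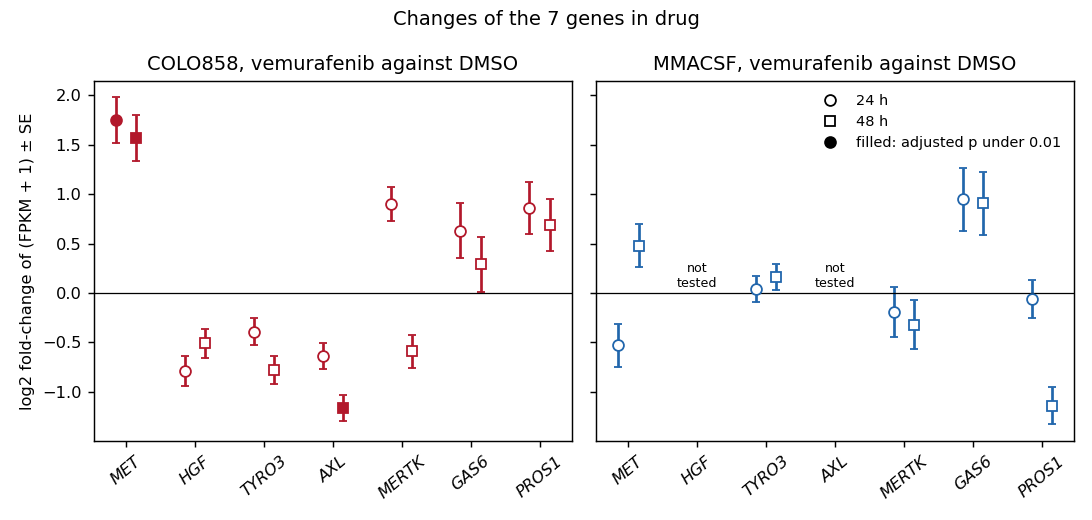
The log2 fold-change of (FPKM + 1) against DMSO (y axis) with its standard error for each gene at 24 h (circles) and 48 h (squares). Filled symbols have an adjusted p under 0.01 in the fit without the replicate block. MET at both times and AXL at 48 h are filled in COLO858, no symbol is filled in MMACSF, and HGF and AXL were not tested in MMACSF.

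MET, which drives growth, scattering and invasion of cells when its ligand binds, rose in COLO858. The DMSO libraries held 2.16 and 2.59 FPKM, the 24 h libraries 8.68 and 12.2 FPKM, and the 48 h libraries 7.83 and 10.4 FPKM. Every drug library was above both DMSO libraries, and the 2 drug times overlapped. The mean was 4.39-fold that of DMSO after 24 h and 3.83-fold after 48 h, with log2 fold-changes of 1.75 ± 0.23 (SE; adjusted p = 0.00613) and 1.57 ± 0.23 (SE; adjusted p = 0.00863). The difference between the drug times, of -0.17 ± 0.23 (SE), did not pass the test (adjusted p = 0.741). Leaving out any 1 of the 4 libraries of a comparison ended the call: the adjusted p was then 0.027 to 0.0471 at 24 h and 0.0367 to 0.0586 at 48 h, with log2 fold-changes of 1.52 to 1.97 and 1.39 to 1.76. The calls were also lost, at 24 h and 48 h, with no minimum on levels (adjusted p = 0.0114 and 0.0147), a minimum of 10 FPKM (0.0104 and 0.0141), or the spread of only the groups compared (0.0159 and 0.0193).

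In MMACSF, MET was at 14.7 and 21.0 FPKM in DMSO, at 10.5 and 13.4 FPKM at 24 h, and at 22.5 and 27.7 FPKM at 48 h. The 24 h libraries lay below and the 48 h libraries above both DMSO libraries. Neither difference passed the test, with log2 fold-changes of -0.53 ± 0.22 (SE; adjusted p = 0.158) and 0.48 ± 0.22 (SE; adjusted p = 0.177). Both passed with the replicate number as a block in limma (adjusted p = 0.00784 and 0.00887). From 24 h to 48 h the mean was 2.10-fold higher, a log2 difference of 1.01 ± 0.22 (SE) with an adjusted p of 0.302. In that comparison of MMACSF limma called 0 of 5 members, beside 0.222% of all genes. The groups did not overlap for 3 of 5, beside 32.1%, and 2 had an unadjusted p under 0.05, beside 6.98%. The change of MET from DMSO to 24 h was 2.27 ± 0.33 (SE) log2 units higher in COLO858 than in MMACSF (adjusted p = 0.005), in a limma model over all 12 libraries. With 1 library left out its adjusted p was 0.00987 to 0.0226, and the call was lost in 6 of the 8 fits, as with the spread of only the groups compared (adjusted p = 0.0208). At 48 h the difference between the lines was 1.09 ± 0.33 (SE) and did not pass (adjusted p = 0.0642).

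The stretches before the RefSeq starts of MET and AXL are shown because these were the genes called against DMSO without the replicate block. That of TYRO3 is shown because it alone of the 7 held TGANTCA, a loose form of the AP-1 motif with any base at N. In TYRO3 the letters read TGAATCA, and whether FOS or JUN, the AP-1 proteins, bind them was not tested. The sequences are from RefSeq, cover the 250 bases before its gene start, and each matched GRCh37 at 1 place, on the plus strand: chr7:116312000-116312249 for MET, chr19:41724878-41725127 for AXL and chr15:41851160-41851409 for TYRO3. For MET, AXL, MERTK and GAS6 the RefSeq start is the edge of the gene as GENCODE gives it. For TYRO3, HGF and PROS1 GENCODE lists a longer gene, and these windows lie inside it. Capitals mark matches, on either strand, to the GC box GGGCGG or to the AP-1 letters, which do not overlap here.
MET: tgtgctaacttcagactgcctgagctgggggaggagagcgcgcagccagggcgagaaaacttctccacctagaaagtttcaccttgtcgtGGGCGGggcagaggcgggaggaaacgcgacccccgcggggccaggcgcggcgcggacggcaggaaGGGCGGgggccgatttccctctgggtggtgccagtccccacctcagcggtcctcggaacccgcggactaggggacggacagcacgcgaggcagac
AXL: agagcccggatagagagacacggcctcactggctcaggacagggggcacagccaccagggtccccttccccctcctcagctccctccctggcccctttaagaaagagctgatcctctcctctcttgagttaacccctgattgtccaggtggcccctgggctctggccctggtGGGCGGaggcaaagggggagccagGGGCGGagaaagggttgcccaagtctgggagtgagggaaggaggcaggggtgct
TYRO3: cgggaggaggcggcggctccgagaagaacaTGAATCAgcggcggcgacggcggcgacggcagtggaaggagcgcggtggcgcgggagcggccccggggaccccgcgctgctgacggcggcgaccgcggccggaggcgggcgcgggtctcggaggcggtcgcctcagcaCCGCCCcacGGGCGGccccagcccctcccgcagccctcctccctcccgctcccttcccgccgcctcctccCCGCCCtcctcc
MET held 2 GC boxes, AXL 2 and TYRO3 3. A GC box was found in 6 of the 7 stretches, with HGF as the exception, and in 42.3% of 27305 RefSeq promoters of this length. The match TGAATCA began at -220 relative to the RefSeq start of TYRO3. Of all promoters, 6.6% held TGANTCA with any base at N. GGAATG, a TEAD motif, was found before the RefSeq start of HGF (11.9% of all promoters). The E-box CACGTG, the M-box core CATGTG and the ETS letters CCGGAA were in 0 of the 7, beside 6.49%, 9.54% and 14.8% of all promoters. These matches describe the letters in these windows only.

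HGF was the lowest of the 7 genes in each COLO858 group. It was at 1.29 and 1.76 FPKM in DMSO, 0.438 and 0.475 FPKM at 24 h, and 0.739 and 0.789 FPKM at 48 h. All 4 drug libraries were below both DMSO libraries, and those at 24 h were the lowest. The log2 fold-changes were -0.79 ± 0.15 (SE; adjusted p = 0.0187) and -0.51 ± 0.15 (SE; adjusted p = 0.0612), and neither passed the threshold. HGF passed in the fit with the replicate block at 24 h (adjusted p = 0.00741) and not at 48 h (0.0263). It met the minimum of 1 FPKM through its DMSO mean of 1.52 FPKM alone, as the means at both drug times were below it. HGF was thus tested only because it was higher in DMSO, and its p-values are no independent support for a fall. HGF was listed at 0 in all 6 MMACSF libraries, so no fold was computed there, and a difference between the lines would carry the COLO858 change alone.

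The genes that process HGF or the related ligand MSP, with the MSP receptor, numbered 7 on a list of HGFAC, HPN, ST14, SPINT1, SPINT2, MST1 and MST1R. ST14, the gene of the protease matriptase, was listed at 0 in all 12 libraries, and MST1R, the MSP receptor and nearest relative of MET, stayed at or below 0.0572 FPKM. HGFAC, the HGF activator protease, reached at most 0.189 FPKM. Hepsin (HPN), another protease that can cut pro-HGF, was at 0.905 and 0.83 FPKM in COLO858 in DMSO, 3.2 and 2.36 FPKM at 24 h, and 2.11 and 1.32 FPKM at 48 h. Limma called 0 of 2 tested genes of this list in COLO858 at each time (both had an unadjusted p under 0.05), with medians of 1.2 and 0.89. With the replicate block 2 rose at 24 h and 1 at 48 h, beside 45.0% and 43.7% of all genes called. In MMACSF, beside 5.83% and 8.83% of all genes, limma called 0 of 1 at 24 h and 1 of 1 at 48 h. This was MST1, the gene of MSP, at 2.26 and 1.37 FPKM in DMSO and 12.5 and 7.91 FPKM at 48 h, a log2 fold-change of 1.98 ± 0.27 (SE; adjusted p = 0.00722). In COLO858 MST1 was also higher in drug, by 1.38 ± 0.29 at 24 h and 1.25 ± 0.29 at 48 h (SE). These changes did not pass in limma (adjusted p = 0.0232 and 0.0312), and neither did the differences between the lines (0.761 and 0.321). MST1 has near copies in the genome, and how shared reads were assigned is not given in the sources used here.

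Among the TAM receptors of COLO858, AXL was lower at each drug time and passed the test at 48 h. It was at 7.22 and 7.25 FPKM in DMSO, 4.41 and 4.16 FPKM at 24 h, and 2.72 and 2.64 FPKM at 48 h. The 3 groups did not overlap, and the replicates of a group were close to each other. The DMSO mean was 1.69-fold that at 24 h and 2.70-fold that at 48 h. The log2 fold-change was -0.64 ± 0.13 (SE; adjusted p = 0.0229) at 24 h and -1.16 ± 0.13 (SE; adjusted p = 0.00465) at 48 h. Without 1 library the call at 48 h was lost, with adjusted p-values of 0.0353 to 0.0423 and log2 fold-changes of -1.18 to -1.15, as it was with the spread of only the groups compared (adjusted p = 0.0197). In the blocked fit AXL also passed at 24 h (adjusted p = 0.00215) and between the drug times (0.00791).

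AXL stayed between 0.255 and 0.557 FPKM in all 6 MMACSF libraries, below the level tested there. MITF was at 56.2 and 79.2 FPKM in COLO858 in DMSO, 93.0 and 125 FPKM at 24 h, and 57.0 and 77.6 FPKM at 48 h, and at 174 to 268 FPKM in MMACSF. At 24 h in COLO858 both libraries were below DMSO for AXL and above DMSO for MITF. The AXL level at 48 h in COLO858 was below that in DMSO, while the MITF levels of those groups overlapped. AXL entered the model of both lines through its COLO858 levels alone, and a pseudocount of 1 FPKM holds the change of such low MMACSF values near 0. The difference between the lines at 48 h, -1.21 ± 0.16 (SE; adjusted p = 0.00154), therefore mostly carries the COLO858 change. With a pseudocount of 0.1 FPKM it did not pass (adjusted p = 0.0182).

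TYRO3 was the TAM receptor with the highest level in every group of both lines. In COLO858 it was at 40.2 and 35.6 FPKM in DMSO, 29.8 and 27.7 FPKM at 24 h, and 23.1 and 20.3 FPKM at 48 h. The groups did not overlap, and the DMSO mean was 1.75-fold that at 48 h. The log2 fold-changes of -0.39 ± 0.14 (SE; adjusted p = 0.109) and -0.78 ± 0.14 (SE; adjusted p = 0.0173) did not pass. They did with the replicate block (adjusted p = 0.0033 and 0.000579), as did the step from 24 h to 48 h (0.00689). In MMACSF it was at 32.2 and 27.4 FPKM in DMSO, 29.0 and 32.2 FPKM at 24 h, and 34.3 and 32.6 FPKM at 48 h, with log2 fold-changes of 0.04 (adjusted p = 0.866) and 0.16 (adjusted p = 0.416). At 24 h the direction in MMACSF turned to -0.03 when libraries were rescaled by median ratios.

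The change of TYRO3 at 48 h was lower in COLO858 than in MMACSF by 0.94 log2 units (-0.94 ± 0.18 SE; adjusted p = 0.00922). This call was close to the threshold: the adjusted p was 0.0381 after median-ratio rescaling, 0.0108 with a pseudocount of 0.1 FPKM, 0.0106 with no trend, 0.026 with the spread of only the groups compared, and 0.0143 to 0.0394 when any 1 of the 8 libraries compared was left out. TYRO3P, a near copy of TYRO3, was listed at 0 to 0.448 FPKM. No row carried the symbols sought for a PROS1 copy (PROS2P, PROSP) or for the GAS6 antisense genes (GAS6-AS1, GAS6-AS2). Rows under other names were not sought.

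MERTK, which on phagocytes mediates the uptake of dying cells, followed another course in COLO858. It was at 8.25 and 9.83 FPKM in DMSO, 16.1 and 19.4 FPKM at 24 h, and 5.88 and 5.42 FPKM at 48 h. The 24 h libraries were above, and the 48 h libraries below, both DMSO libraries. Neither difference passed, with log2 fold-changes of 0.90 ± 0.17 (SE; adjusted p = 0.0173) and -0.59 ± 0.17 (SE; adjusted p = 0.0552). From 24 h to 48 h MERTK had the lowest log2 difference of the 22 receptor tyrosine kinase genes tested, -1.49 ± 0.17 (SE; adjusted p = 0.012), and 24 h was 3.15-fold the level at 48 h. Limma called 0 of the 7 genes in that comparison, beside 1.38% of all genes, and 3 had an unadjusted p under 0.05 (20.1% of all genes). The values of those groups did not overlap for 4 of 7 genes, beside 46.7% of all genes. The MERTK difference passed with a pseudocount of 0.1 FPKM (adjusted p = 0.0099) and after rescaling (adjusted p = 0.00796). It passed with the replicate block as well (adjusted p = 0.0023), as did the difference from DMSO at 24 h (0.00325), while that at 48 h did not (0.011).

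In MMACSF, MERTK was at 2.12 and 1.68 FPKM in DMSO, 1.13 and 2.01 FPKM at 24 h, and 1.68 and 1.01 FPKM at 48 h. The 24 h libraries overlapped DMSO, those at 48 h lay at or below the lower DMSO library, and the log2 fold-changes of -0.19 ± 0.25 and -0.32 ± 0.25 (SE) had adjusted p-values of 0.627 and 0.397. The line difference of the step from 24 h to 48 h was -1.36 ± 0.30 (SE; adjusted p = 0.0336). No member passed in that comparison of the lines by limma, beside 2.96% of all genes, although 5 of 7 had an unadjusted p under 0.05 (17.4% of all genes).

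The summed TAM receptor level in COLO858 was 54.2 ± 2.11 FPKM in DMSO, 50.8 ± 0.618 FPKM at 24 h and 30.0 ± 2.40 FPKM at 48 h. TYRO3 made up 69.9 ± 3.27% of it in DMSO, 56.6 ± 3.69% at 24 h and 72.2 ± 0.939% at 48 h. MERTK made up 16.7 ± 2.71%, 35.0 ± 4.15% and 18.8 ± 0.416%, and AXL 13.4 ± 0.558%, 8.44 ± 0.458% and 8.94 ± 0.523%. The sum at 24 h was near that in DMSO while the share of MERTK was higher in both libraries. In MMACSF the sum was 32.2 ± 3.77, 32.5 ± 2.75 and 35.3 ± 1.72 FPKM, and TYRO3 made up 92.6 ± 0.247%, 94.1 ± 0.987% and 94.8 ± 1.24%. MET relative to the sum of MET and the TAM receptors was 4.21 ± 0.672% in DMSO, 17.0 ± 3.17% and 23.3 ± 4.95% at the drug times in COLO858. In MMACSF this share was 35.6 ± 8.36%, 26.8 ± 1.66% and 41.5 ± 4.76%. These shares are a description and were not tested. They concern RNA, and say nothing of protein or of receptor activity.

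**Figure D3:**
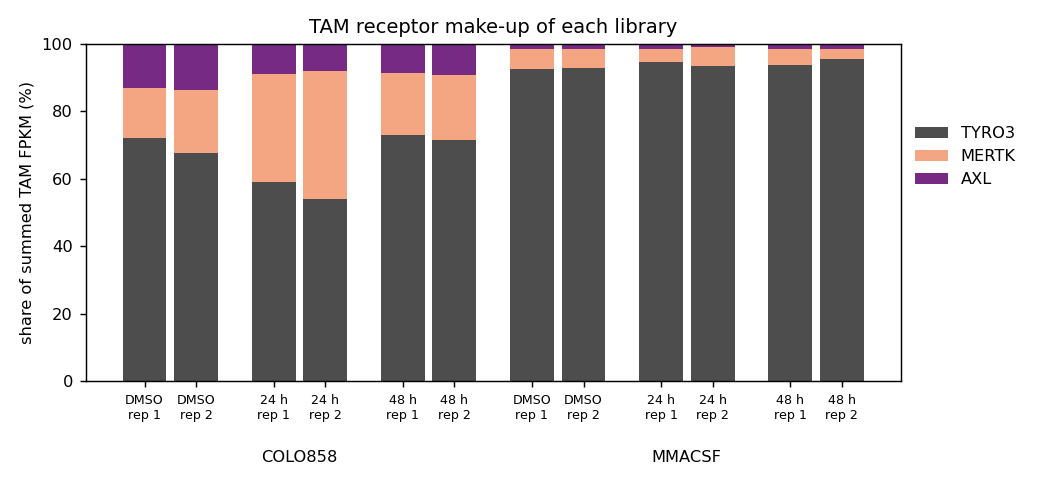
Share (y axis, %) of TYRO3, MERTK and AXL in the summed FPKM of the TAM receptors, 1 bar per library. MERTK takes 32.0 and 37.9% of the sum in the COLO858 24 h libraries against 14.8 and 18.7% in DMSO, and TYRO3 takes over 90% in every MMACSF library.

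PROS1, the gene of protein S, a plasma anticoagulant and a ligand of TYRO3 and MERTK, was far above GAS6 in both lines in DMSO. In COLO858 it was at 18.2 and 25.4 FPKM in DMSO, 35.5 and 45.0 FPKM at 24 h, and 29.6 and 41.9 FPKM at 48 h. All drug libraries were above both DMSO libraries, but the log2 fold-changes of 0.86 ± 0.26 (SE; adjusted p = 0.063) and 0.69 ± 0.26 (SE; adjusted p = 0.112) did not pass. Both passed with the replicate block (adjusted p = 0.000715 and 0.00124). In MMACSF it was at 54.2 and 73.1 FPKM in DMSO, 55.2 and 66.4 FPKM at 24 h, and 26.0 and 30.3 FPKM at 48 h. The 24 h libraries overlapped DMSO, and both 48 h libraries were below all others. The DMSO mean was 2.26-fold that at 48 h, with a log2 fold-change of -1.14 ± 0.19 (SE; adjusted p = 0.0132) that missed the threshold and passed after median-ratio rescaling (adjusted p = 0.00738). This MMACSF change at 48 h also passed with the replicate block (adjusted p = 0.00117).

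The change of PROS1 at 48 h was 1.82 ± 0.34 (SE) log2 units higher in COLO858 than in MMACSF (adjusted p = 0.009). Neither line passed on its own without the replicate block, and the difference missed the threshold without any 1 of the 8 libraries compared (adjusted p = 0.0112 to 0.0403). It also missed it with no minimum on levels (0.0118), a pseudocount of 0.1 FPKM (0.01002) and the spread of only the groups compared (0.0251). The summed level of the fibroblast markers DCN, LUM and PDGFRA was 5.5 to 8.53 FPKM in DMSO and 15.7 to 26.0 FPKM at 48 h in COLO858, and 54.6 to 76.5 and 19.1 to 27.7 FPKM in MMACSF. Nearly all of it was LUM, at 5.3 and 8.27 FPKM in DMSO and 15.3 and 25.6 FPKM at 48 h in COLO858, and at 52.2 and 73.3 and then 17.9 and 26.4 FPKM in MMACSF. LUM reached 1 FPKM in both lines, DCN only in MMACSF and PDGFRA in neither. At 48 h limma called 0 of 1 tested marker in COLO858 and 0 of 2 in MMACSF, beside 9.47% and 8.83% of all genes. At an unadjusted p under 0.05 the counts were 1 and 2, beside 39.3% and 38.9% of all genes. With the replicate block LUM was called in COLO858, beside 43.7% of all genes. The part of these markers in the PROS1 values was not tested.

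GAS6, a ligand of all 3 TAM receptors, was at 3.53 and 2.24 FPKM in COLO858 in DMSO, 6.12 and 3.93 FPKM at 24 h, and 4.41 and 3.05 FPKM at 48 h. In MMACSF it was at 6.13 and 5.15 FPKM in DMSO, 15.7 and 8.75 FPKM at 24 h, and 14.2 and 9.18 FPKM at 48 h. In MMACSF both drug times lay above DMSO without overlap, at 2.17-fold and 2.08-fold of its mean, but with replicates as far apart as 15.7 and 8.75 FPKM. The log2 fold-changes there were 0.95 ± 0.32 (SE; adjusted p = 0.0985) and 0.91 ± 0.32 (SE; adjusted p = 0.0977). In COLO858 they were 0.63 ± 0.28 (SE; adjusted p = 0.164) and 0.29 ± 0.28 (SE; adjusted p = 0.502), and with the replicate block that at 24 h passed (adjusted p = 0.00295) and that at 48 h did not (0.0278). GAS6 made up 8.36 ± 2.53% of the summed ligand level in the MMACSF DMSO libraries, 16.9 ± 7.41% after 24 h and 29.3 ± 8.55% after 48 h. In COLO858 it made up 12.2 ± 5.74%, 11.4 ± 4.72% and 9.87 ± 4.37%.

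Replicates of the ligands and of MET differed in 1 direction across groups. Replicate 2 was above replicate 1 in 6 of 6 groups for MET, by 1.20 to 1.42-fold, and in 6 of 6 for PROS1, by 1.16 to 1.42-fold. For GAS6 replicate 2 was at 0.558 to 0.84 of replicate 1 in 6 of 6 groups. Of 13595 genes, 34.6% had replicate 2 above and 17.9% below replicate 1 in all groups.

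Across lines, limma called 1 of the 7 genes at 24 h (MET) and 3 at 48 h (AXL, TYRO3 and PROS1), beside 3.71% and 7.48% of all genes. The AXL difference mostly carries the change in COLO858, as given above. The median difference of the 7 genes, COLO858 minus MMACSF, was -0.32 at 24 h and -0.51 at 48 h, beside -0.01 and -0.04 over all 13595 genes tested. These comparisons and those within the lines share the DMSO libraries. For HGF the difference at 24 h was -0.79 ± 0.15 (SE; adjusted p = 0.0168), which rests on MMACSF values at 0. For MERTK it was 1.09 ± 0.30 (SE; adjusted p = 0.0631) at 24 h and -0.27 ± 0.30 (SE; adjusted p = 0.645) at 48 h. For GAS6 it was -0.32 ± 0.47 and -0.62 ± 0.47 (SE), with adjusted p-values of 0.807 and 0.467.

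Set among 58 receptor tyrosine kinase genes, TYRO3 held rank 3 by mean FPKM in COLO858 in DMSO, 4 at 24 h and 8 at 48 h, and rank 2 in each MMACSF group. MET in COLO858 held rank 19 in DMSO, 12 at 24 h and 14 at 48 h. By log2 fold-change against DMSO in COLO858, MET was first of the 22 tested at 24 h and in the second place at 48 h, and AXL was second from the lowest at 48 h. Of the 22 genes, 2 rose and 1 fell at 24 h, and 3 rose and 2 fell at 48 h, with a median of -0.25 at each time. Of all genes, 9.82% and 9.47% were called. With the replicate block 5 rose and 9 fell at 24 h, and 6 rose and 6 fell at 48 h. The shares of all genes were then 45.0% and 43.7%. The called genes that are no members included ERBB3, a neuregulin receptor, at 42.6 and 45.5 FPKM in DMSO and 107 and 109 FPKM at 48 h (log2 fold-change 1.28 ± 0.12 SE; adjusted p = 0.00295). FGFR4, an FGF receptor, went from 15.6 and 12.8 FPKM to 2.54 and 1.18 FPKM (-2.45 ± 0.28 SE; adjusted p = 0.00474). The ephrin receptor EPHB1 went from 0.0803 and 0.108 FPKM to 3.47 and 3.85 FPKM (2.09 ± 0.13 SE; adjusted p = 0.0011). EPHB1 met the minimum of 1 FPKM in COLO858 through its 48 h level alone, so it was tested only because it was high there. In MMACSF 1 of 24 rose at 24 h, and 2 rose and 1 fell at 48 h, with medians of 0.14 and 0.33. Of all genes in MMACSF, 5.83% and 8.83% were called. ERBB3 rose in MMACSF at both times, by 0.80 ± 0.11 and 0.87 ± 0.11 (SE; adjusted p = 0.00866 and 0.00558).

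**Figure D4:**
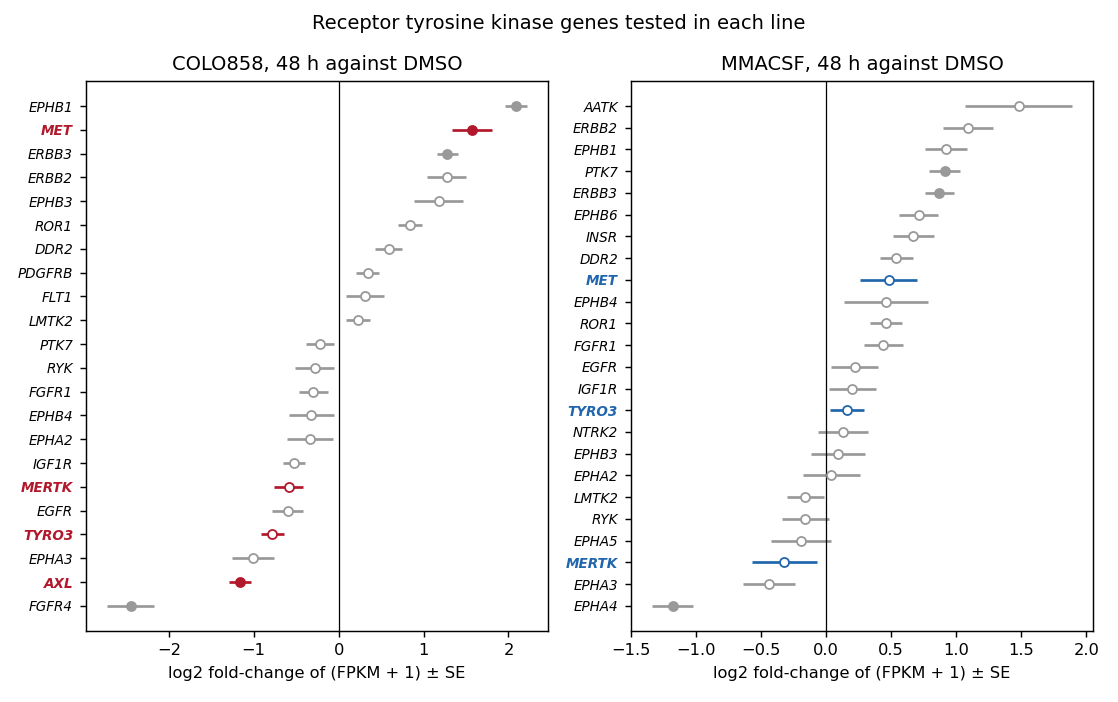
The log2 fold-change of (FPKM + 1) at 48 h against DMSO (x axis, a separate scale for each line) with its standard error for the receptor tyrosine kinase genes tested, 22 in COLO858 and 24 in MMACSF, ordered by value. Colored names are members and filled points have an adjusted p under 0.01 without the replicate block. In COLO858 MET is second from the top and AXL second from the bottom.

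Of the partners and shedding genes of MET and AXL, 6 of 7 were tested in each line. In COLO858 3 rose and 0 fell at each time (medians 1.25 and 1.43), beside 9.82% and 9.47% of all genes called. With the replicate block 4 rose and 1 fell at 24 h, and 4 rose and 0 fell at 48 h. The shares of all genes were then 45.0% and 43.7%. In MMACSF 1 rose and 1 fell at 24 h, and 2 rose and 1 fell at 48 h (medians 0.31 and 0.25). Of all genes in MMACSF, 5.83% and 8.83% were called. CD44, whose variant forms act as coreceptors of MET, was at 6.59 and 8.25 FPKM in COLO858 in DMSO and 61.2 and 78.0 FPKM at 48 h (log2 fold-change 3.06 ± 0.19 SE; adjusted p = 0.00111). It also rose at 48 h in MMACSF, by 1.35 ± 0.17 (SE; adjusted p = 0.00646), and the lines differed by 1.72 ± 0.27 (SE; adjusted p = 0.00362). PLXNB1, a semaphorin receptor that can associate with MET, rose at each time in both lines, with log2 fold-changes of 1.57 and 2.22 in COLO858 and 2.10 and 2.45 in MMACSF.

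TIMP3, an inhibitor of the metalloproteinases that shed MET and AXL, moved in opposite directions in the lines. It was at 60.0 and 63.4 FPKM in COLO858 in DMSO and 489 and 561 FPKM at 48 h, and at 203 and 227 and then 112 and 125 FPKM in MMACSF. The log2 fold-changes were 3.06 ± 0.12 (SE; adjusted p = 0.000378) and -0.85 ± 0.13 (SE; adjusted p = 0.00964), and their difference was 3.92 ± 0.17 (SE; adjusted p = 6e-06). The sheddase genes themselves did not pass without the replicate block. ADAM10 was at 24.8 and 33.7 FPKM in COLO858 in DMSO, 49.7 and 63.6 FPKM at 24 h, and 40.8 and 50.8 FPKM at 48 h. All its drug libraries in COLO858 were above both DMSO libraries.

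Of the signal adaptors and brakes, 18 of 19 were tested. In COLO858 2 rose and 0 fell at 24 h, and 3 rose and 0 fell at 48 h (medians 0.31 and 0.38). Of all genes, 9.82% and 9.47% were called. With the replicate block 10 rose and 1 fell at 24 h, and 9 rose and 1 fell at 48 h. The shares of all genes were then 45.0% and 43.7%. In MMACSF limma called 0 of 18 at each time, while 6 and 3 had an unadjusted p under 0.05, beside 36.0% and 38.9% of all genes (medians 0.06 and 0.05). GAB1, the docking protein of MET, was at 0.893 and 1.34 FPKM in COLO858 in DMSO and 4.74 and 6.19 FPKM at 48 h (log2 fold-change 1.61 ± 0.22 SE; adjusted p = 0.00743). The phosphatase gene PTPRJ, whose product can remove phosphate from MET, rose in COLO858 by 1.52 ± 0.15 (SE; adjusted p = 0.00291) at 24 h and 1.39 ± 0.15 (SE; adjusted p = 0.00396) at 48 h. In MMACSF at 48 h the log2 fold-changes, which did not pass, were 0.91 ± 0.21 for GAB1 and 1.03 ± 0.16 for PTPRJ (SE). The difference between the lines passed for neither of them (at 48 h adjusted p = 0.181 and 0.323). STAT3, a transcription factor downstream of MET, rose in COLO858 by 1.43 ± 0.13 (SE; adjusted p = 0.00228) and 1.03 ± 0.13 (SE; adjusted p = 0.00559). Its change at 48 h was 1.16 ± 0.15 (SE) higher in COLO858 than in MMACSF (adjusted p = 0.00168).

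The 5 genes of the vitamin K cycle, which serves the carboxylation of GAS6 and protein S, were tested in both lines. In COLO858 0 rose and 1 fell at 24 h (median -0.14), beside 9.82% of all genes called. At 48 h 0 were called (median 0.04), beside 9.47%, and 4 had an unadjusted p under 0.05, beside 39.3% of all genes. In the blocked fit 2 rose and 2 fell at each time, beside 45.0% and 43.7% of all genes called. In MMACSF 0 were called at each time by limma, and 2 had an unadjusted p under 0.05 each time, beside 36.0% and 38.9% of all genes (medians -0.17 and -0.21). The gene called was VKORC1L1, a vitamin K epoxide reductase, at 28.2 and 33.7 FPKM in DMSO and 15.1 and 15.0 FPKM at 24 h in COLO858 (log2 fold-change -0.99 ± 0.14 SE; adjusted p = 0.00865). Its other changes, which did not pass, were -0.73 in COLO858 at 48 h, and -0.71 and -0.69 in MMACSF. By limma its change did not differ between the lines (adjusted p = 0.512 and 0.942). In that comparison 1 other gene of the 5 was called at each time, beside 3.71% and 7.48% of all genes. GGCX, the carboxylase itself, was at 9.63 to 14.2 FPKM in all COLO858 libraries and 11.0 to 16.0 FPKM in all MMACSF libraries.

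Of 8 genes of phosphatidylserine exposure and of other TAM ligands, 7 were tested. In COLO858 limma called 0 at 24 h (1 had an unadjusted p under 0.05, beside 40.3% of all genes) and 2 fell at 48 h (medians -0.04 and -0.43). Of all genes, 9.82% and 9.47% were called. With the replicate block 1 fell at 24 h, and 2 rose and 2 fell at 48 h, beside 45.0% and 43.7% of all genes. In MMACSF 1 fell at 24 h and 2 fell at 48 h (medians 0.11 and 0.04), beside 5.83% and 8.83% of all genes. LGALS3, whose product galectin-3 has been described as a MERTK ligand, was at 306 and 298 FPKM in COLO858 in DMSO and 150 and 156 FPKM at 48 h (log2 fold-change -0.98 ± 0.11 SE; adjusted p = 0.00417). In MMACSF it went from 1363 and 1350 FPKM to 465 and 464 FPKM (-1.54 ± 0.11 SE; adjusted p = 0.00121). ATP11A, a flippase that returns phosphatidylserine to the inner leaflet, fell at 48 h by 1.10 on the log2 scale in COLO858 and by 1.28 in MMACSF (adjusted p = 0.00839 and 0.00418).

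The genes with the pattern most like each member were sought by Pearson r of log2(FPKM + 1), each value taken relative to the DMSO mean of its line, over the 12 libraries and 13594 genes. The points share libraries and DMSO means, and no test was made. For MET they were ALDH1B1 (r = 0.964), UBL3 (0.959) and NOVA1 (0.955). For AXL they were RPL12 (0.986), NEFL (0.986) and ZCCHC12 (0.985), for TYRO3 PORCN (0.983), ASB13 (0.973) and EEF1G (0.972), and for MERTK ERVFRD-1 (0.93), SLC25A23 (0.922) and CHRNB2 (0.905). For HGF they were CNKSR2 (0.994), F2RL1 (0.985) and SPATS2L (0.984). For GAS6 they were CNNM2 (0.99), C12orf34 (0.974) and CRAT (0.97), and for PROS1 PLOD2 (0.974), PCDH9 (0.971) and RBMXL1 (0.969). MERTK had the lowest leading r of the 7 genes.

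In GRCh37, the 7 protein-coding genes lie on 6 chromosomes: MET at chr7:116312250-116438431, HGF at chr7:81328326-81399754 on the minus strand, AXL at chr19:41725128-41767671, TYRO3 at chr15:41849873-41875787, MERTK at chr2:112656184-112787138, and, on the minus strand, GAS6 at chr13:114523522-114567049 and PROS1 at chr3:93591895-93698847 (GENCODE). The values are per gene and do not separate exons or isoforms.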

How the data were processed

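The authors mapped single reads from stranded mRNA libraries to hg19 with TopHat and deposited FPKM from Cuffdiff on Galaxy, in 1 table per line. Versions, annotation, strand setting and the scaling of libraries are not given in the sources used here. Depth is unknown, so no counting interval is given. All 12 columns were used, grouped by their labels. FPKM + 1 were log2-transformed, and genes whose mean reached 1 FPKM in at least 1 group of a fit were tested with limma 3.58.1 in R 4.3.3 (eBayes with trend, two-sided, Benjamini-Hochberg over all genes tested, threshold 0.01), each line on its own and, for differences between lines, in 1 model of 6 groups. Fold-changes on this scale understate those of low genes. The fits were tested on simulated data. In COLO858, deviations from the group means of libraries with the same replicate number correlated over genes in all 3 pairs of groups (r = 0.196 to 0.211), so the blocked values are given too. In MMACSF these correlations were lower (r = 0.0628 to 0.113), and blocked values are given there for the members called with the block. No label says what the numbers mark. Alternatives were another pseudocount, other minimums, rescaling, no trend, a replicate block, fewer groups, and leaving out each library. The members and gene lists were chosen with earlier results of these data known, and the motifs after the files were seen. Named genes were the members, at most 4 called genes per list with the highest absolute log2 fold-change against DMSO, near copies, and the 3 genes most like each member. HPN, ST14, HGFAC, MST1R, ADAM10, GGCX, MITF, MLANA and the other markers were named after their values were seen. Promoter sequences are those of RefSeq (GRCh38.p14) matched exactly to GRCh37, and gene positions are from GENCODE 44 lifted to GRCh37.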

Additional observations from a re-analysis of the deposited data

Results flagged for a closer look

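In the main fit, the changes of MET, TYRO3 and PROS1 differed between the lines by a test of the difference itself, in a limma model over the 12 libraries. These calls depended on the settings. The change of MET at 24 h was 2.27 log2 units higher in COLO858 than in MMACSF (adjusted p = 0.005). At 48 h the change of TYRO3 was lower in COLO858 (-0.94, adjusted p = 0.00922), and that of PROS1 was higher (1.82, adjusted p = 0.009). With a pseudocount of 0.1 FPKM neither of these 48 h differences passed in limma (adjusted p = 0.0108 for TYRO3 and 0.01002 for PROS1). With the spread of only the groups compared, the calls of MET, TYRO3 and PROS1 were each lost, as given above. The AXL difference at 48 h passed the same test in the main fit (-1.21, adjusted p = 0.00154). It sets a fall from 7.24 to 2.68 FPKM in COLO858 against MMACSF values between 0.255 and 0.557 FPKM, under the level tested there. It is not shown that AXL responds differently in the lines. With 2 libraries per group, no search for outlying libraries was made.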

How the results depend on the processing

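Counts of members called, and of all genes, moved with the settings. With a pseudocount of 0.1 FPKM, 1 member was called between the drug times in COLO858 (MERTK) and 0 in the line difference at 48 h, against 3. With no minimum COLO858 gave 0 at 24 h and 1 at 48 h, and there were 2 in the line difference at 24 h. With a minimum of 10 FPKM they were 0 and 0 in COLO858 (MET adjusted p = 0.0104 and 0.0141). Median-ratio rescaling gave 1 between the drug times in COLO858, 1 at 48 h in MMACSF and 2 in the line difference at 24 h, and turned TYRO3 in MMACSF at 24 h to -0.028. With the spread taken from only the groups compared, COLO858 gave 0 and 0, and the line differences 0 at 24 h and 1 at 48 h.

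With the replicate number as a block the counts were 7 at 24 h, 4 at 48 h and 3 between the times in COLO858, 1 and 2 at 24 h and 48 h in MMACSF, and 3, at 24 h and between the times, in the line differences. The replicate block raised the genes called over the tables from 1247 to 5719 and from 1202 to 5549 in COLO858, and from 734 to 3284 and from 1113 to 3790 in MMACSF. It raised those between the times in COLO858 from 175 to 2280, and the line differences from 505 to 2396, from 1017 to 3434 and from 403 to 1774. In MMACSF the members called with the block were MET at 24 h (adjusted p = 0.00784) and MET and PROS1 at 48 h (0.00887 and 0.00117). The correlations between libraries of the same replicate number were lower in MMACSF than in COLO858. Replicates of MET, PROS1 and GAS6 differed in the same direction there as well, so whether MMACSF libraries were paired is not known. The blocked fits have fewer residual degrees of freedom than those without the block.

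With the spread of only the groups compared, 477, 380 and 13 genes were called in COLO858 (24 h, 48 h, between the times), 59, 364 and 14 in MMACSF, and 208, 666 and 203 in the line differences. A minimum of 10 FPKM gave 831 and 779 in COLO858 and 275 in the line difference at 24 h. A pseudocount of 0.1 gave 336 there, no minimum gave 86 between the times in COLO858, and rescaling gave 281.

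Leaving out each library in turn gave 0 members called against DMSO in COLO858, 0 to 1 in the line difference at 24 h and 1 in that at 48 h. These fits have fewer samples, and assume that a lone library varies like the others. Over all genes they called 66 to 92 and 111 to 138 in COLO858 and 45 to 70 and 85 to 125 in MMACSF. Of 312 member values from these fits, 14 turned in direction, none of them called. They were MET (-0.39 to 0.0493) and PROS1 (-0.42 to 0.0679) between the times in COLO858. In MMACSF they were TYRO3 (-0.074 to 0.15), MERTK (-0.44 to 0.0596) and PROS1 (-0.27 to 0.16) at 24 h, and MERTK (-0.38 to 0.12) and GAS6 (-0.42 to 0.35) between the times. GAS6 turned also in the line differences at 24 h (-0.71 to 0.0703) and between the times (-0.69 to 0.0824). AXL and HGF were not tested within MMACSF.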
